A study of Mus musculus with 12 samples.

Results

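The gelsolin family is a group of actin-binding proteins built from repeats of a gelsolin-type domain. It was described here in day 10 skin wounds as 8 genes: Gsn, Capg, Scin, Svil, Flii, Vil1, Avil and Vill. The 8 were found by gene symbol among the 54232 genes of each count file, and 7 of them passed the filter on low counts, as did 18618 genes in all. The family was chosen by the fall of Gsn against the film dressing in these same libraries, so the comparisons of Gsn with that dressing are given as a description without a test. The other 7 were listed because they belong to the same protein family.

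Poly(A) RNA had been sequenced from 12 full-thickness dorsal wounds of 6 mm, made in male Lepr (db/db) mice of 12 weeks on the C57BLKS/J background (the sample labels give 12.5 weeks). This mutation of the leptin receptor gene makes mice obese and diabetic, and it was carried by every animal, controls included. In the 5 TD libraries the wound lay under Tegaderm, a transparent film dressing. In the 4 strain libraries a patch with a strain of about 30% had been applied directly after injury. In the 3 no-strain libraries it was a patch without strain. The labels do not say which wounds came from the same mouse, so p-values measure the spread between these wounds. They name no healthy skin and no non-diabetic mouse.

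Actin filaments are assembled, cut, capped and taken apart in cells that crawl, contract or engulf. Gelsolin binds calcium, cuts a filament and stays on its fast-growing end as a cap. It also exists as a secreted plasma form that helps to clear actin released by dying cells. Relatives differ in what they keep of this activity: Capg caps filaments without cutting them, scinderin and the villins can cut, villins can also bundle, and supervillin and flightless work mainly as scaffolds at the membrane or with other regulators.

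Total counts ran from 20354677 to 25059371 per library. Skin transcripts were abundant: Col1a1, a collagen gene of fibroblasts, averaged 15921 CPM (counts scaled to a common library total) in TD, 14414 under strain and 16233 without strain, and the basal keratinocyte gene Krt14 averaged 2629, 4448 and 3560 CPM. Some libraries stood apart in a way that the group labels do not give. Transcripts of 8 liver genes, among them Alb and Gc, came in steps: their summed level was 66.2 to 78.6 CPM in TD replicates 1, 2 and 5 and in strain replicates 1 and 2. It was 1.29 and 1.55 CPM in TD replicates 4 and 3, 156 and 183 CPM in strain replicates 3 and 4, and 281 to 325 CPM in the 3 no-strain libraries. The steps followed the numbers in the sample titles. Numbers 3 and 4 were lowest, 11 to 13 highest, and 14 and 15 next highest. Numbers 1, 2, 6, 7 and 10 had the level of 66.2 to 78.6 CPM. The 8 genes were picked after their counts had been seen, and the source of these reads was not tested. Every no-strain library was above every other library, so this step and the no-strain patch cannot be told apart. For strain against TD, results were also computed within the 5 libraries of like level.

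The promoters of the members that were lower under the patches are shown first, as the 250 bases before each RefSeq start (build GRCm38.p6). RefSeq windows were at hand for 7 of the 8 members. Gsn, on chromosome 2 at 35256380-35307892 (plus strand), has 3 annotated starts, and gene-level counts do not separate them. Scin lies on chromosome 12 at 40059769-40134228 (minus strand) and Avil on chromosome 10 at 127000709-127020994 (plus strand). Capitals mark GGGCGG on either strand, the core of a GC box, in windows read 5′ to 3′ along each gene.
Gsn start 1, chr2:35256109-35256358, plus strand: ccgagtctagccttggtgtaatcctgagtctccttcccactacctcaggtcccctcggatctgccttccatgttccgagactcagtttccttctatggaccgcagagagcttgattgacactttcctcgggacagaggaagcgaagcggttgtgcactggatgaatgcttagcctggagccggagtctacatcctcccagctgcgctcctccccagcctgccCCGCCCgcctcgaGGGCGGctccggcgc
Gsn start 2, chr2:35266494-35266743, plus strand: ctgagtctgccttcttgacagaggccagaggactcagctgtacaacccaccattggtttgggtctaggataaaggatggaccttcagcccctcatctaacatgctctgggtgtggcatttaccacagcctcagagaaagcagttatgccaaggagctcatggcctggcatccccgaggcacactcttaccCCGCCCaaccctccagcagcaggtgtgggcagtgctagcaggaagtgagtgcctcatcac
Gsn start 3, chr2:35282130-35282379, plus strand: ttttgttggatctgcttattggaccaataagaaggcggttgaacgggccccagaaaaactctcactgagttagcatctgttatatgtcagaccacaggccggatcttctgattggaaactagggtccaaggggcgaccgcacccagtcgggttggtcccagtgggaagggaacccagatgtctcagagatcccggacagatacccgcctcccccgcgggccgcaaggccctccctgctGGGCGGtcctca
Scin, chr12:40134229-40134478, minus strand: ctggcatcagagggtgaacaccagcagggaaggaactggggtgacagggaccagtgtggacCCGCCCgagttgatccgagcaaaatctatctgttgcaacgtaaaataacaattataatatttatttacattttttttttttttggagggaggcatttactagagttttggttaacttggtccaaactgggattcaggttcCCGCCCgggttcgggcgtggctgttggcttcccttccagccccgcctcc
Avil, chr10:127000459-127000708, plus strand: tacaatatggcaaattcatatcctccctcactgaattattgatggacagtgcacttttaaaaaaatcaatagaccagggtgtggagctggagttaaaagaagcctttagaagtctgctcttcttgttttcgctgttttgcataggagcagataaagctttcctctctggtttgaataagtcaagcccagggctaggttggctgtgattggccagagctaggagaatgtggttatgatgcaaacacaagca
GGGCGG was found in each of the 3 Gsn windows and in the Scin window, but not in that of Avil. It occurs in 32.7% of 32851 mouse promoter windows of this length. The CArG box, the motif named for serum response factor, was found in the window of Vil1 and in none of the other 8 windows, against 1.47% of all windows. TGANTCA, the core of an AP-1 motif, was found in none of the 9 windows, against 6.75% of all. These matches describe letters only.

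**Figure D1:**
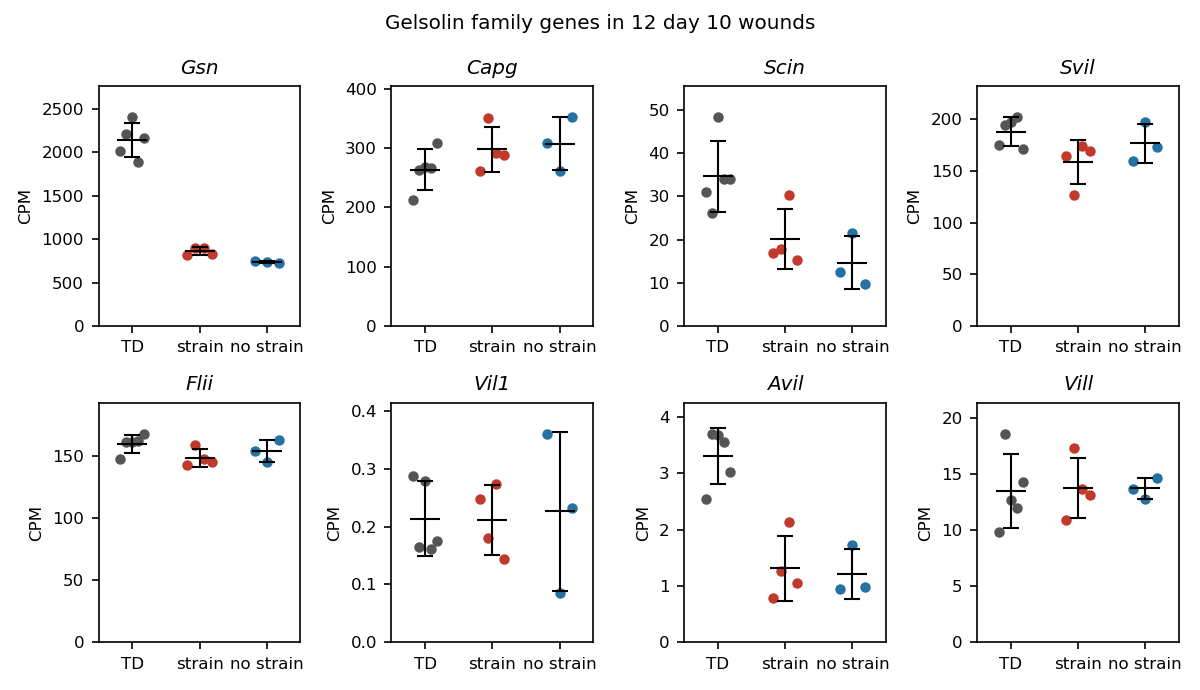
Level of each of the 8 genes (CPM, y axis from 0, scale set per gene) in the 12 libraries by dressing. Points are libraries and bars the mean and SD of 5 TD, 4 strain and 3 no-strain libraries; Gsn, Scin and Avil are lower under both patches on average, while Vil1 stays under 0.4 CPM.

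Gsn was by far the most abundant member in every library, and it was lower under both patches than under the film dressing. The 5 TD libraries had 2014, 2217, 2404, 1892 and 2166 CPM. The 4 strain libraries had 822, 901, 901 and 829 CPM, and the 3 no-strain libraries 746, 739 and 726 CPM. All 7 patch libraries were below all 5 TD libraries, which 7.15% of all genes showed for strain and 12.5% for no strain.

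The fitted log2 change of Gsn was -1.31 for strain against TD (SE 0.0860), a level 2.48-fold lower. For no strain against TD it was -1.54 (SE 0.0964), which is 2.90-fold lower. These SEs do not allow for the choice of Gsn by its fall in the same libraries. The order of the groups was TD, strain, no strain. Strain libraries all lay above no-strain libraries by a small step, with a log2 difference of 0.23 (SE 0.0952, interval 0.02 to 0.44). That step did not pass the edgeR quasi-likelihood test (adjusted p = 0.872). No gene among the 18618 passed in that comparison (0.00% called, smallest adjusted p 0.402), and 5.61% had an unadjusted p under 0.05, as Gsn did. Libraries lay wholly higher under strain than without strain for 2.85% of genes. DESeq2 called 29 genes in that comparison and no member. Spread within groups was small for Gsn: the SD was 9.17% of the mean in TD, 5.09% under strain and 1.44% without strain. Within the libraries of like liver transcript level, the log2 change of Gsn for strain against TD was again -1.31 (SE 0.118), with 2014 to 2217 CPM in 3 TD libraries and 822 and 901 CPM in 2 strain libraries.

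Among the 6 relatives tested, those that passed were lower under the patches, as Gsn was, and none was called higher. Avil alone passed for strain against TD, where 6.41% of all genes were called lower and 6.20% higher. Avil and Scin passed for no strain against TD, where 8.40% were called lower and 9.35% higher. The median log2 change over the 6 was -0.18 for strain and -0.07 for no strain, beside 0.02 and 0.00 over all genes tested. Both comparisons use the same TD libraries, so they are not independent of each other.

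Avil encodes advillin, a villin-like protein best known from sensory neurons. It was a low transcript. Counts were 62 to 92 per library in TD, 16 to 55 under strain and 21 to 40 without strain. In TD it stood at 2.55, 3.70, 3.67, 3.55 and 3.03 CPM. Strain libraries had 0.795, 1.26, 2.14 and 1.05 CPM, and no-strain libraries 0.945, 1.72 and 0.976 CPM. No patch library reached the lowest TD library, and strain replicate 3 came nearest. Strain and no-strain libraries overlapped.

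The log2 change of Avil was -1.31 for strain against TD (SE 0.281, edgeR adjusted p = 0.0156), and -1.44 for no strain against TD (SE 0.315, edgeR adjusted p = 0.012). The corresponding levels were 2.48-fold and 2.71-fold lower. The direction was the same under every alternative run, but the call was not. For strain against TD the adjusted p was 0.0504 without strain replicate 2, 0.0564 with the title letter as a covariate and 0.566 when the level of the skeletal muscle list was a covariate. For no strain against TD it was 0.0551 without no-strain replicate 1, 0.0543 without no-strain replicate 3 and 0.108 with the muscle covariate. The title letter is the L or R of a sample title. It was R in every TD library but replicate 1. In the patch libraries it was L except in strain replicate 3 and no-strain replicate 1, so letter and patch are partly confounded. The muscle list was itself lower on average under the patches, and the muscle covariate removed most calls over all genes, as given below. Within the libraries of like liver transcript level the change was -1.58 (SE 0.309, edgeR adjusted p = 0.0476).

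Exons of Avil share 165 bases, 4.86% of its exon length, with Tsfm on the opposite strand, and no strand setting is given in the sources used here. Tsfm, a mitochondrial translation factor gene, averaged 17.2 CPM in TD, 18.8 under strain and 18.4 without strain, so it did not fall with Avil. Markers of sensory neurons were close to absent: of 7 genes listed, 3 passed the filter and their sum over all 7 was 1.72 to 6.62 CPM in any library. Prph, the gene of an intermediate filament of peripheral neurons, averaged at most 0.188 CPM in any group, and Scn9a, a sodium channel gene of pain-sensing neurons, at most 0.0120 CPM.

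Scin encodes scinderin, also called adseverin, a calcium-dependent severing protein of secretory and epithelial cells. TD libraries had 31.0, 26.2, 48.3, 34.0 and 33.9 CPM. Strain libraries had 16.9, 17.7, 30.4 and 15.3 CPM, and no-strain libraries 12.5, 21.5 and 9.76 CPM. All no-strain libraries were below all TD libraries, whereas strain replicate 3 lay inside the TD range. For no strain the log2 change was -1.25 (SE 0.305, edgeR adjusted p = 0.0191), a level 2.38-fold lower.

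For strain against TD, Scin did not pass, with a log2 change of -0.79 (SE 0.270, interval -1.38 to -0.19, edgeR adjusted p = 0.0785). Without strain replicate 3 the value was -1.07 and passed (adjusted p = 0.0243), and with the 5 libraries of like liver level it was -0.81 (adjusted p = 0.0335). For no strain against TD the call was lost without no-strain replicate 1 (adjusted p = 0.0755), without no-strain replicate 3 (0.0776), without the filter on low counts (0.0551), with the title letter (0.0571) and with the muscle covariate (0.141). Strain and no strain differed by 0.46 (interval -0.22 to 1.14, edgeR adjusted p = 0.895), which leaves room for a difference of more than 1 log2 unit.

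**Figure D2:**
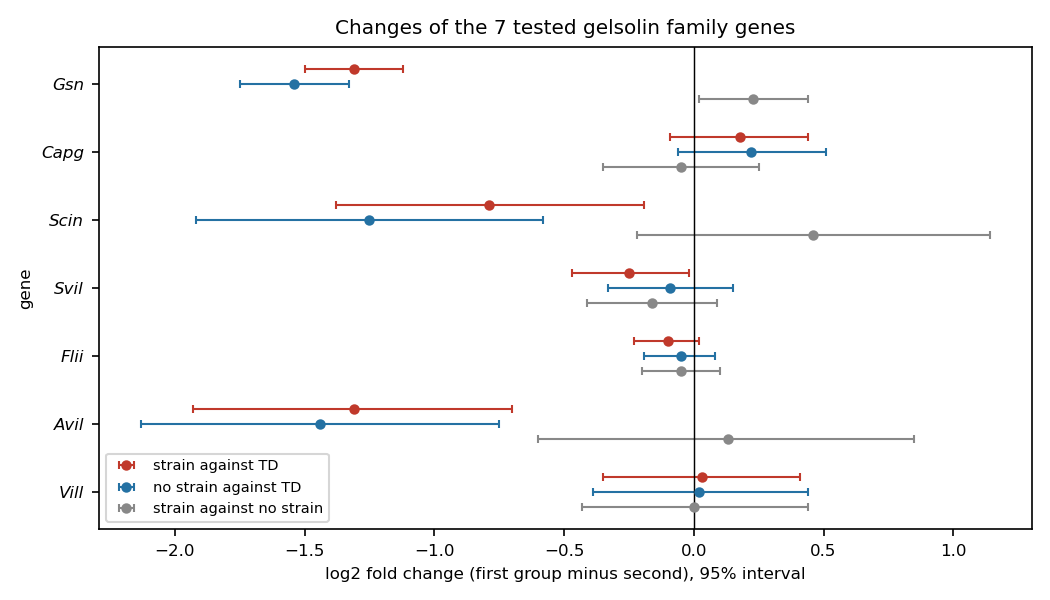
Fitted log2 fold changes (x axis, first group minus second) of the 7 tested genes, with 95% intervals, for strain against TD, no strain against TD and strain against no strain. Intervals of Avil and Scin lie below 0 in both comparisons with TD, and that of Svil for strain against TD alone. Those of Flii, Vill and Capg include 0 in all 3 comparisons. Intervals drawn for Gsn against TD are no test, because its fall there chose the family.

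Capg, the capping member without severing activity and a typical macrophage gene, passed in no comparison. It had 213, 263, 268, 266 and 309 CPM in TD, 261, 351, 291 and 289 CPM under strain, and 309, 262 and 352 CPM without strain. The groups overlapped throughout. Its log2 change was 0.18 for strain (interval -0.09 to 0.44, edgeR adjusted p = 0.36) and 0.22 for no strain (interval -0.06 to 0.51, adjusted p = 0.262). Neither passed, so Capg was not shown to change in either direction. The summed level of 8 macrophage markers was 2160 to 4850 CPM in TD, 4130 to 6998 CPM under strain and 4516 to 7157 CPM without strain, and 1 of the 8 passed as higher in each comparison with TD. Their part in the level of Capg was not tested.

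Neither scaffold member passed in any comparison. Flii encodes flightless, a nuclear and cytoskeletal regulator known to slow skin repair in mice. It was among the steadiest of the family, with 148 to 168 CPM in TD, 143 to 159 CPM under strain and 145 to 163 CPM without strain. Its changes were -0.10 (interval -0.23 to 0.02, edgeR adjusted p = 0.258) and -0.05 (interval -0.19 to 0.08, adjusted p = 0.591), so a change beyond 0.23 log2 units lies outside both intervals. Svil encodes supervillin, which links actin and myosin to the membrane. It had 175, 195, 197, 202 and 171 CPM in TD, 165, 127, 174 and 169 CPM under strain, and 160, 197 and 173 CPM without strain. Strain replicate 2 was the lowest of the 12. The change of Svil was -0.25 for strain (interval -0.47 to -0.02, edgeR adjusted p = 0.13) and -0.09 for no strain (interval -0.33 to 0.15, adjusted p = 0.612). The first interval lies just below 0, but the change did not pass after adjustment over all genes.

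The remaining villins gave little signal. Vill, encoding a villin-like protein of unsettled function, ranged from 9.87 to 18.6 CPM in TD, 10.9 to 17.3 CPM under strain and 12.8 to 14.7 CPM without strain. Its log2 changes were 0.03 and 0.02 against TD, with intervals from -0.35 to 0.41 and from -0.39 to 0.44. Vil1 encodes villin of the intestinal and renal brush border. It had 2 to 8 counts per library, at most 0.360 CPM, and did not pass the filter. Of 5 intestinal epithelium genes listed, 3 passed the filter, and the sum of the 5 was 17.3 to 21.4 CPM in TD, 12.3 to 16.0 CPM under strain and 8.92 to 13.9 CPM without strain. Most of it was Lgals4, a galectin gene, which averaged 17.5, 12.4 and 10.0 CPM and was the 1 gene of the list called lower in each comparison with TD (log2 changes -0.49 and -0.80, edgeR adjusted p = 0.0277 and 0.00468). Cdx2, the intestinal transcription factor gene, had 0 counts in all 12 libraries, which allows up to 0.147 CPM in the smallest. Without the filter Vil1 gave a log2 change of -0.01 for strain and 0.07 for no strain (SE 0.472 and 0.507), so no difference was detectable at this depth.

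Levels of different genes were compared per kilobase of exon. In TD, Gsn stood at 677 ± 62.1 CPM per kb (SD, n = 5), Capg at 104 ± 13.4, Flii at 31.7 ± 1.49, Svil at 17.6 ± 1.31 and Scin at 11.6 ± 2.75. Vill, Avil and Vil1 followed at 3.06, 0.971 and 0.0602 CPM per kb. The summed level of the family was 847 ± 70.2 CPM per kb in TD (SD, n = 5), 446 ± 28.2 under strain (SD, n = 4) and 411 ± 14.3 without strain (SD, n = 3). The sum without Gsn was 169 ± 16.1, 172 ± 15.5 and 177 ± 16.5 CPM per kb in the same order, differences smaller than the SD within a group.

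Gsn therefore made up 80.0% ± 1.70 of the length-scaled family level in TD, 61.4% ± 1.26 under strain and 56.9% ± 2.54 without strain (SD, n = 5, 4 and 3). The share of Capg was 12.3%, 26.4% and 29.6% in that order, and its range of 24.9% to 32.8% in patch libraries was above that of 10.8% to 14.0% in TD. These shares follow from the fall of Gsn, which chose the family, and are a description. The log2 CPM of Capg minus that of Gsn does not depend on how libraries are scaled. It averaged -3.02 in TD, -1.54 under strain and -1.27 without strain. The step of -0.27 between strain and no strain did not pass a two-sided exact permutation test over 35 splits (p = 0.114, where the smallest possible is 0.0286).

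**Figure D3:**
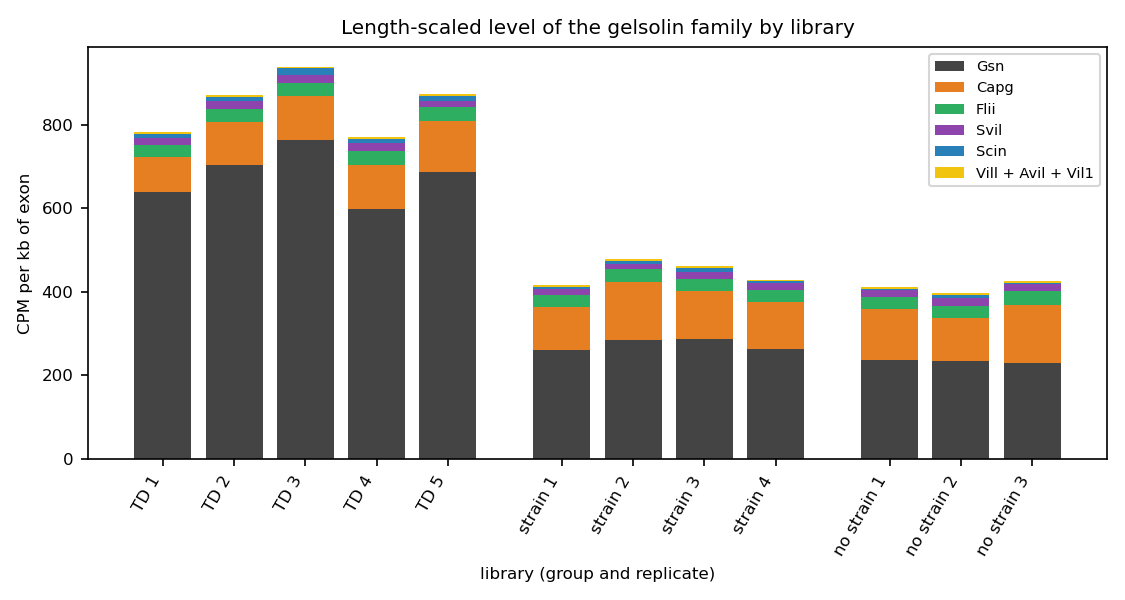
Stacked bars give the length-scaled level (CPM per kb of exon, y axis from 0) of the family in each of the 12 libraries, by group and replicate. The family total is 770 to 938 in the 5 TD libraries and 396 to 478 in the 7 with a patch, and the shortfall is in the Gsn segment.

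Markers of cell types known for gelsolin are set beside these values. In bulk tissue, fewer cells of a type and less RNA per cell cannot be told apart. Of the 10 fibroblast genes, 0 passed for strain and 1 was lower for no strain, with median log2 changes of -0.05 and -0.00. Their sum averaged 60386 CPM in TD, 58159 under strain and 60420 without strain, and most of it was the collagens Col1a1, Col1a2 and Col3a1. Single genes of the list differed. Pi16, a gene of adventitial fibroblasts, averaged 784, 407 and 305 CPM in that order and was the one called lower for no strain (log2 change -1.36, edgeR adjusted p = 0.0459, and -0.95 with adjusted p = 0.118 for strain). Clec3b averaged 300, 224 and 166 CPM without passing, Dpt 629, 593 and 531 CPM, and Pdgfra 229, 280 and 315 CPM. The 8 adipocyte genes did fall, 5 of 8 for strain and 7 of 8 for no strain, with sums of 1023 to 2290 CPM in TD, 734 to 1091 CPM under strain and 531 to 808 CPM without strain. Plin1, which coats the fat droplet, averaged 103, 41.2 and 19.8 CPM in that order.

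Skeletal muscle genes were lower too, 6 of 9 tested for strain and 2 of 9 for no strain, with sums of 5428 to 13294 CPM in TD, 2542 to 5041 CPM under strain and 3733 to 8315 CPM without strain. The 5 Schwann cell genes had 0 lower for strain and 2 lower for no strain. Neutrophil genes rose, 8 of 8 for strain and 6 of 8 for no strain, and endothelial genes rose, 4 of 6 in each. Smooth muscle and pericyte genes had 1 of 8 higher in each. Mast cell genes and differentiated keratinocyte genes had no call. Basal keratinocyte genes had 2 of 6 lower in each, wound keratinocyte genes 1 of 4 higher in each, and T cell genes 3 of 6 higher in each. With the mean of the muscle list as a covariate, the fitted change of Gsn, again a description, was -1.21 for strain and -1.48 for no strain, and the calls of Avil and Scin were lost as given above. The part of these cell types in the level of Gsn, Scin and Avil was not otherwise tested.

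To see how far other actin regulators moved, 109 further genes were counted by role, of which 106 were tested. For strain against TD, 17 passed, 6 higher and 11 lower, or 16.0%, beside 12.6% of all genes. For no strain, 29 passed, 19 higher and 10 lower, or 27.4%, beside 17.8% of all genes. When libraries were scaled by their totals alone, the second split became 12 higher and 12 lower, and Capza1, Tmsb10 and Enah no longer passed (adjusted p = 0.0637, 0.0612 and 0.0793). The median change of the 106 was 0.02 and 0.03. For strain against no strain, 0 passed in edgeR and in DESeq2, with 8 at an unadjusted p under 0.05.

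These counts leaned on single libraries. For strain against TD, 10 passed without TD replicate 1, 11 without TD replicate 2, 8 without TD replicate 3 and 7 without TD replicate 4. The count was 4 without strain replicate 2, 11 without strain replicate 4, and 7 within the libraries of like liver level, where 0 were higher. For no strain against TD, 18 passed without TD replicate 2, 19 without TD replicate 3, 12 without no-strain replicate 1, 19 without no-strain replicate 2 and 12 without no-strain replicate 3. With the muscle covariate 0 passed for strain and 6 for no strain, beside 1 and 638 over all genes.

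Cofilins cut and depolymerise filaments by a route separate from gelsolin. The group of cofilins and their cofactors held more higher than lower genes among those that passed. Its median log2 change was 0.05 for strain and 0.16 for no strain. Of 15 tested, 4 were higher and 1 lower for strain, and 5 higher and 1 lower for no strain. Cfl1, the main cofilin of non-muscle cells, had 659 to 816 CPM in TD, 845 to 947 CPM under strain and 900 to 1095 CPM without strain. Its libraries did not overlap with TD in either comparison. Of all genes, 7.15% for strain and 12.5% for no strain were wholly lower, and the share wholly higher was not counted. The log2 changes of Cfl1 were 0.34 (SE 0.0863, edgeR adjusted p = 0.0287) and 0.47 (SE 0.0932, edgeR adjusted p = 0.00784). Its relatives Cfl2 and Dstn did not pass, at -0.55 and 0.11 for strain and -0.14 and 0.06 for no strain. The other genes called higher were coronins and Gmfg, listed as cofactors. Coro1b, a coronin that acts with Arp2/3 and cofilin, rose by 0.32 for strain and 0.39 for no strain. Coro6 of striated muscle fell by 1.63 on the log2 scale for strain, and Coro2b fell by 0.75 for no strain. None of the 8 cofilin kinases and phosphatases passed in either comparison.

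Of 21 genes of capping and filament ends tested, 6 were lower and 0 higher for strain, and 15 did not pass. The 2 with the smallest p were Tmod4 and Lmod3, which cap or seed the thin filaments of striated muscle, at -1.29 and -1.21. The subunits of capping protein did not pass for strain, with Capza1 at 0.23, Capza2 at 0.21 and Capzb at 0.16. For no strain 5 were lower, Tmod4 again among them at -1.14 (edgeR adjusted p = 0.0132), and 2 higher. Lmod1 of smooth muscle was at -1.03 and Add3, an adducin of the membrane skeleton, at -0.78. The higher ones were Capza1 at 0.33 and Capzb at 0.30.

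Monomer-binding genes were mixed. Pfn2, a profilin common in neurons and muscle, fell from 27.0 to 42.5 CPM in TD to 16.3 to 21.3 CPM under strain and 19.0 to 21.8 CPM without strain, with log2 changes of -0.85 and -0.73. Pfn1, the profilin of most cells, rose by 0.43 for no strain, and Tmsb10, a thymosin that holds actin monomers, by 0.46. Gc, the plasma protein that scavenges actin together with plasma gelsolin, was named after its values were seen. It is one of the 8 liver genes above: it had 97, 96, 0, 1 and 79 counts in TD, 85, 92, 222 and 197 counts under strain, and 397, 399 and 329 counts without strain. Its call as higher for no strain (log2 change 2.88, edgeR adjusted p = 0.0397) follows the steps of that set.

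Assembly factors that passed were mostly higher under the patches. Of 19 genes of the Arp2/3 complex and its activators, 1 was higher for strain, and 6 were higher and 3 lower for no strain. Arpc3, a subunit of the complex, rose by 0.36 and 0.49. Actr3, the Arp3 subunit, rose by 0.33 for no strain, and the low transcripts Actr3b and Wasf1 fell by 1.24 and 1.32. Vasp, which speeds filament growth at the leading edge, had 97.9 to 114 CPM in TD, 127 to 150 CPM under strain and 142 to 167 CPM without strain. Its changes were 0.37 and 0.57, with no overlap with TD, a separation that was not counted over all genes in this direction. Enah, a relative of Vasp, rose by 0.40 for no strain, and the formin gene Inf2 fell by 0.35 for strain.

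Of the 2 partners of Flii that were listed, Lrrfip1 rose by 0.40 for no strain, with 1 of 2 called. Among 12 bundlers and crosslinkers, only Actn2, the alpha-actinin of striated muscle, passed, at -1.25 for strain. Among the 6 actins only Acta1 of skeletal muscle passed, at -1.44 for strain, and Acta1 also belongs to the muscle list. Whether the gelsolin family differed from these role groups was not tested.

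**Figure D4:**
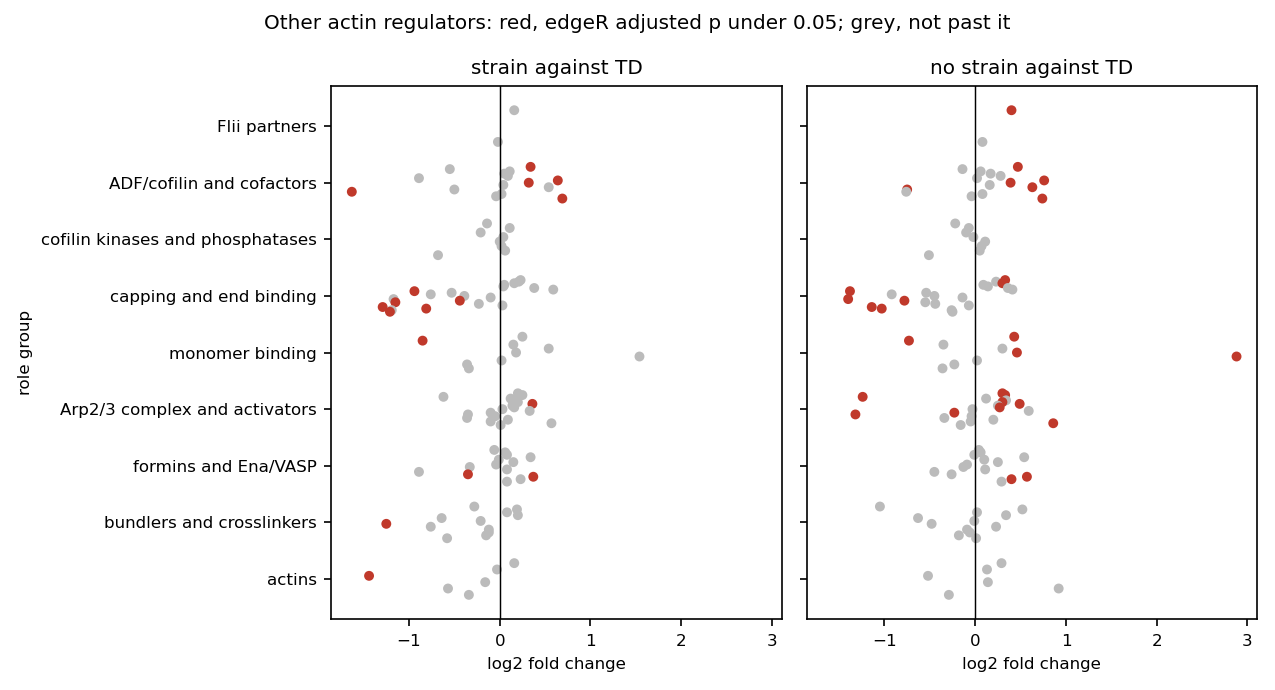
Each point is 1 of 106 other actin regulators, placed by its log2 fold change against TD (x axis) and its role group (y axis), for strain (left) and no strain (right). Red points passed edgeR at an adjusted p of 0.05, 17 on the left and 29 on the right, and grey points did not.

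Genes with a profile like that of Gsn were looked for among 12418 genes of at least 5 CPM on average. Likeness was the root-mean-square difference between log2 CPM profiles over the 12 libraries, each centred on its own mean. The nearest was Ntrk2, the receptor for brain-derived neurotrophic factor, at 0.175 log2 units, with 54.5 CPM in TD, 26.0 under strain and 22.1 without strain. Fgf11, Klhl33, Cmbl and Phf24 followed at 0.186 to 0.247. Fgf11, a member of the fibroblast growth factor family, had group means of 9.69, 4.72 and 4.04 CPM. These 5 genes were all lower on average under both patches, which follows from their choice by likeness to Gsn.

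Within the family, Avil was nearest to Gsn, at 0.342, and Scin next at 0.408. Svil, Flii, Vill and Capg lay at 0.642, 0.664, 0.750 and 0.811. The profile of Scin was nearest to Camsap3, a microtubule minus-end binding protein gene, at 0.146. Fgfr2, a receptor tyrosine kinase gene of epithelia, was at 0.174 and Tnk1 at 0.194. Camsap3 averaged 42.9 CPM in TD, 24.1 under strain and 16.5 without strain. The profile of Avil was nearest to C7, a complement component gene, at 0.259, with Phf24 at 0.264 and Shisa2 at 0.271. Libraries of a group share their treatment and the steps noted above, so such likeness is a description of 12 libraries.

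**Figure D5:**
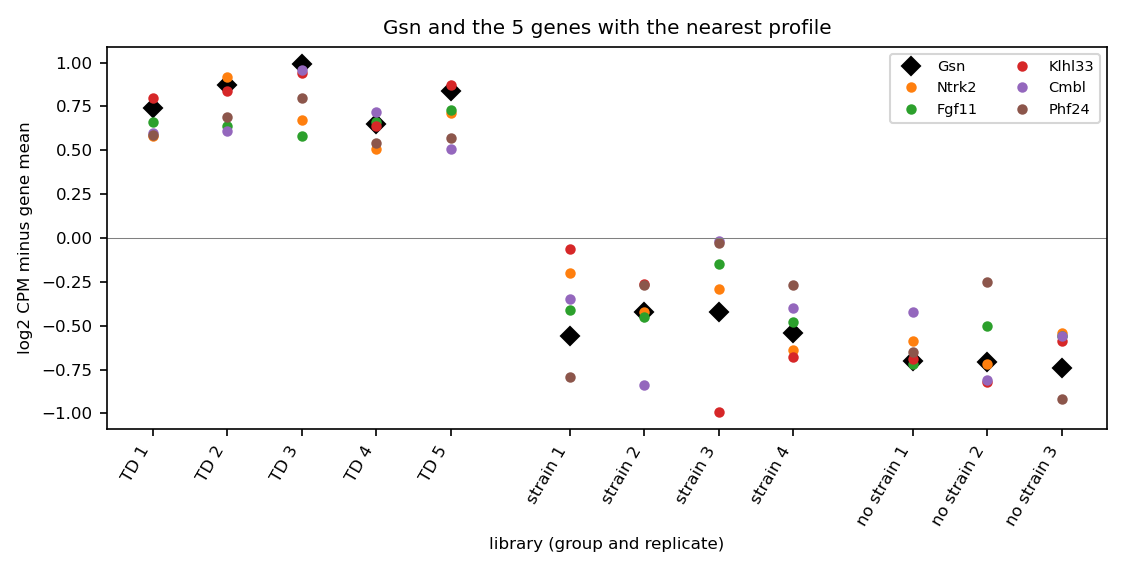
Log2 CPM of Gsn (diamonds) and its 5 nearest genes (circles) in each library, minus each gene's mean over 12 libraries (y axis), by group and replicate (x axis). All 6 genes are above their mean in the 5 TD libraries and below it in the 7 patch libraries, as follows from the choice by likeness to Gsn.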

How the data were processed

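RNA from 12 wounds was extracted from frozen tissue, enriched on oligo(dT) beads and made into Illumina libraries, per the labels' protocols. Each deposited file holds the raw counts of 1 library per Ensembl gene, as its header and values show. The submitters' processing notes name bcl2fastq 2.17, FastQC, cutadapt, STAR, featureCounts and DESeq2, and the build GRCm38. Settings, strand rule and annotation release are not given in the sources used here. Of 54232 gene identifiers, 54165 matched GENCODE M21 (GRCm38), which gave symbols, positions and exon lengths.

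Genes were kept by filterByExpr of edgeR 4.0.16 (minimum count 10, minimum total 15). One quasi-likelihood fit with TMM scaling and robust estimates held all 12 libraries (R 4.3.3). P-values were adjusted by Benjamini-Hochberg over 18618 genes, with a threshold of 0.05, and standard errors derived from the F statistic. Log2 CPM adds a prior count of 2. Counts were simulated for 18618 genes, of which 200 were changed. Of genes changed by 1 log2 unit, 61.0% were recovered in either comparison with TD and 51.0% between the patches. False calls made up 6.75% of calls for strain against TD, 2.58% for the no-strain patch against TD and 3.45% between the patches. In the real data 2349 and 3305 genes were called against TD, so these rates need not hold there. Over 19 replicate pairs, chi-square per degree of freedom was 8.69 to 67.1, so no pair was a duplicate. A count of 0 allows 3 counts, which covers counting error only.

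Members, gene lists and tests were chosen with earlier results of these data known. All 8 members are named. Pi16, Clec3b, Lgals4, Cfl2, Dstn, Gmfg, the capping protein genes for strain and Tmod4 for no strain were named after their values were seen. Of other actin regulators, up to 2 higher and 2 lower genes per role and comparison are named by smallest p, and for likeness the nearest genes to Gsn (6 by the rule, of which 1 is not reported here) and 3 to each other called member. Alternatives were DESeq2 1.42.0, its size factors, library totals alone, no filter, at least 5 CPM, the groups compared alone, covariates (title letter, muscle list) and leaving out each library. The set of like liver level was added after seeing the data.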

Additional observations from a re-analysis of the deposited data

Results flagged for a closer look

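Svil in strain replicate 2 stood apart from the other strain libraries. Its log2 CPM was 6.98, and the next strain library was at 7.37, a gap of 0.842 of the range over 4 libraries. Of 14 group values of the members screened, this 1 was past the limit, where about 1 in 20 is by chance. Without that library the change of Svil for strain against TD was -0.16 (edgeR adjusted p = 0.287).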

How the results depend on the processing

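No paired analysis was possible because the numbers in the titles do not recur between groups. Gsn kept its direction against TD under all alternatives, from -1.36 to -1.21 for strain and from -1.60 to -1.48 for no strain. Of the relatives, 1 passed for strain against TD. This count was 2 with DESeq2 and with the libraries of like liver level, 0 with at least 5 CPM (which removes Avil), with the title letter and with the muscle covariate, and 0 to 2 when each library was left out. For no strain against TD, 2 relatives passed. This became 1 without a filter, with at least 5 CPM and with the title letter, 0 with the muscle covariate, and 0 to 2 when each library was left out. Capg, Svil, Flii and Vill passed under no alternative in any comparison. No member passed for strain against no strain under any alternative.

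The count of other actin regulators for strain against TD was 11 without a filter, 7 with the title letter, 7 with the libraries of like liver level and 0 with the muscle covariate, and 4 to 19 when each library was left out. For no strain it was 6 with the muscle covariate and 12 to 30 when each library was left out. Counts over all genes for strain against TD were 1527 without a filter, 798 with the title letter, 986 with the like set, 1 with the muscle covariate and 882 to 2458 when each library was left out. For no strain they were 2145 with the title letter, 638 with the muscle covariate and 1505 to 3415 when each library was left out. With library totals alone, all genes for no strain split into 1257 higher and 2046 lower, against 1741 and 1564. For strain against no strain DESeq2 called 29. Other causes were not tested. At this depth Vil1 gave too few counts for a test.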
